A study of Homo sapiens with 12 samples.

Results

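The genes described here encode the machinery of major histocompatibility complex (MHC) class I presentation: HLA-B, HLA-C, HLA-E, HLA-F, B2M, TAP1, TAP2, TAPBP and NLRC5. They were chosen by name, and the rows carrying these 9 symbols were read in both deposited normalized tables, 9 of the 60314 named entries in each. All 9 passed the filter on low values in both cell lines, among 16657 genes tested in C4-2B and 20517 in 22RV1, where the filter kept genes with a normalized read count of 10 or more in 3 or more libraries of a line. Adding 56-mer was not followed by a detected change of any of the 9 genes in either line. Their starting levels in the control cells differed between the lines, up to 5.33-fold for HLA-F, as did those of most genes. Control libraries did not overlap between the lines for 76.5% of the 15527 genes tested in both. The median difference in either direction was 1.60-fold for the 9 genes and 1.86-fold for all genes.

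Class I molecules display peptides from proteins made inside a cell to CD8 T cells and natural killer cells. Proteasomes cut the proteins, and the TAP1-TAP2 transporter carries the peptides into the endoplasmic reticulum. Tapasin (the product of TAPBP) holds empty class I molecules next to the transporter. Heavy chains generally need the light chain B2M to reach the cell surface. Transcription of these genes is driven by NLRC5, the class I transactivator, and by interferon and NF-kB signalling, and prostate cancers are known for low class I expression.

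C4-2B, which grows without androgen, descends from the prostate cancer line LNCaP, and 22RV1 comes from a prostate tumour xenograft that relapsed after castration. Both carry the genotype label WT and were grown for 48 h in medium without glutamine, with serum, to which 2 mM L-glutamine was added. Control cells received nothing further, and treated cells also received 50 nM of 56-mer, an aptamer, which is a nucleic acid folded so as to bind a target. The labels name no control oligonucleotide, so the aptamer and the addition of an oligonucleotide as such cannot be told apart. Each line has 3 control and 3 56-mer libraries, 12 in all, described in the series text as biological triplicates. If the cultures of a triplicate were not separate, the p-values measure only the spread between these libraries, which may be technical.

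Read totals were 10245014 to 13627140 in the C4-2B controls, 12277758 to 12508539 with 56-mer, 11834331 to 13586045 in the 22RV1 controls and 8847368 to 13740386 with 56-mer. Reads fell on 20779 to 22686 entries in a C4-2B library and on 28342 to 31010 in a 22RV1 library. All 10 luminal prostate markers examined, among them KLK3 and KRT8, exceeded 1 CPM (counts per 1000000 reads) in both lines. Of 15 leukocyte, endothelial and stromal markers, CD3E, MS4A1, PECAM1 and CDH5 were at 0 in all controls and PTPRC reached 0.0911 CPM at most. The endothelial marker VWF had 12.6 CPM in C4-2B and 0.247 in 22RV1, and the myeloid marker CD68 had 12.2 and 1.46 CPM, both without overlap. The summed level of the 15 was 44.9 to 68.3 CPM in the C4-2B controls and 26.2 to 31.8 in the 22RV1 controls, of which COL1A1 made up 32.1 and 23.9 on average. Library 1 of the C4-2B 56-mer group stood apart by gene length (Spearman correlation of a gene's deviation from the line mean with transcript length -0.33 over 10436 genes). Library 1 of the 22RV1 56-mer group stood apart by GC content (correlation -0.58 over 12249 genes). Changes with 56-mer whose sign turns, or whose unadjusted p falls under 0.05, without 56-mer library 1 of their line are given both ways below. Other libraries had GC correlations too. In C4-2B they were -0.20, -0.0037 and -0.21 in controls 1 to 3 and -0.18, 0.30 and 0.32 in 56-mer libraries 1 to 3. In 22RV1 they were 0.12, -0.14 and 0.30 in controls 1 to 3 and 0.17 and 0.38 in 56-mer libraries 2 and 3. Estimates after a GC and length correction are among the alternatives below.

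The promoters of these genes are shown first, because class I genes are known for a shared set of short control elements just upstream of their start sites. RefSeq promoter entries on build GRCh38.p14 were matched by symbol for 7 of the 9 genes, with 8 entries, since TAP1 has more than 1 start. HLA-E and NLRC5 had no match. The 250 bases before each start were searched on both strands for 4 motifs: TTTCNNTT, the core of an interferon-response element; TGACGC, like the X2 box bound by CREB and ATF proteins; CCAAT, the box bound by NF-Y; and GGGGATTC, like an NF-kB site. The windows of HLA-B and HLA-C (both on the minus strand), HLA-F and B2M (both on the plus strand) are printed 5′ to 3′ with every motif match in capitals. Each of these windows lies wholly or partly within the GENCODE 29 model of its gene, which begins upstream of the RefSeq start.
HLA-B chr6:31357180-31357429: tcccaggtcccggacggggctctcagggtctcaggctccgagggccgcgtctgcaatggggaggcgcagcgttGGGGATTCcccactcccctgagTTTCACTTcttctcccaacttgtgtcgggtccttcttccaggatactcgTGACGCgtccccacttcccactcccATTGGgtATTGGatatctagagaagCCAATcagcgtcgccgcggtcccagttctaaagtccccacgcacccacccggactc
HLA-C chr6:31272093-31272342: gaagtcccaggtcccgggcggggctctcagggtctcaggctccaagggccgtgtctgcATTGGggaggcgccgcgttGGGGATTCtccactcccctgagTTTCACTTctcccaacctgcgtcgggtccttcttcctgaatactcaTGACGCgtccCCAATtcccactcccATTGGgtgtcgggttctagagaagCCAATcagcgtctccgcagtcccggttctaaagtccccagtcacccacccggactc
HLA-F chr6:29723184-29723433: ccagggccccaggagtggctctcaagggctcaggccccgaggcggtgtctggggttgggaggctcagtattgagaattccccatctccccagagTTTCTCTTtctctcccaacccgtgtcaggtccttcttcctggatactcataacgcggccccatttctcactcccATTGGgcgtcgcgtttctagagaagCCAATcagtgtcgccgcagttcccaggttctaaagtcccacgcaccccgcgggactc
B2M chr15:44711267-44711516: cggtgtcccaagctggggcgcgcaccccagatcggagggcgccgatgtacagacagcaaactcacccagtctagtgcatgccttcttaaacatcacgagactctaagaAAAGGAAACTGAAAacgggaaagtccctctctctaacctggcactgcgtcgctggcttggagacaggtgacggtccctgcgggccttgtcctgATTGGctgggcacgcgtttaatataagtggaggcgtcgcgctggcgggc

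HLA-B and HLA-C, whose products are classical peptide-presenting heavy chains, carried all 4 motifs in nearly the same places. TTTCNNTT lay 155 to 148 bases before the start in HLA-B and 151 to 144 bases before it in HLA-C, TGACGC lay at 106 to 101 and 105 to 100 bases, and the last CCAAT lay at 56 to 52 bases in both. HLA-F, a nonclassical heavy chain, shared TTTCNNTT (156 to 149 bases) and the last CCAAT (57 to 53 bases) but had no match to TGACGC or GGGGATTC in this window. B2M had 2 overlapping matches to TTTCNNTT on the other strand, at 142 to 135 and 136 to 129 bases.

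Across the 8 entries, TTTCNNTT matched in 7, CCAAT in 5, TGACGC in 3 (HLA-B, HLA-C and TAP2) and GGGGATTC in 2 (HLA-B and HLA-C). Among 35116 promoter windows of the same length, the shares with a match were 20.3% for TTTCNNTT, 32.0% for CCAAT, 7.67% for TGACGC and 0.772% for GGGGATTC. The first 3 motifs named above occurred together in 0.359% of all windows and in 2 of the 8 entries. A match is a stretch of letters and not a measured binding site.

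In untreated cells, the question was how much of this machinery each line transcribed. Levels between genes are compared as CPM per kilobase of the longest GENCODE 29 transcript, and each line's controls are given as mean ± SD over 3 libraries. HLA-C ranked highest in C4-2B at 82.8 ± 7.07, followed by B2M at 59.7 ± 2.93 and HLA-B at 47.8 ± 4.49. The loading factor TAPBP stood at 27.9 ± 1.28 and HLA-E, which presents leader peptides to natural killer receptors, at 14.8 ± 1.47. Each of these 5 genes was clear of its neighbours in the order, with no overlap between libraries. The transporter subunit TAP1 had 10.1 ± 1.38 and its partner TAP2 only 1.26 ± 0.0362, although both are needed for a working transporter. HLA-F (6.21 ± 1.80) lay between them, and NLRC5 (1.61 ± 0.377) overlapped TAP2.

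The order in 22RV1 was flatter at the top. B2M at 42.4 ± 3.22 and HLA-C at 41.5 ± 4.32 could not be ranked, as their libraries overlapped. HLA-B (23.3 ± 1.52), TAPBP (21.2 ± 1.12) and HLA-E (18.8 ± 1.37) followed, and each overlapped the next. TAP1 stood at 10.9 ± 0.552, clear of the genes above and below it. TAP2 (2.02 ± 0.224), HLA-F (1.17 ± 0.829) and NLRC5 (0.713 ± 0.251) closed the order, and neighbours overlapped. The order depends on the length assigned to a gene: with the union of all exons as length, a choice added after the values were seen, B2M fell behind HLA-B in C4-2B (23.6 against 24.3, overlapping) and behind HLA-C in 22RV1 (16.8 against 31.1, not overlapping). HLA-B in 22RV1 then stood at 11.8, below HLA-E (16.4) and TAPBP (15.8) with no overlap.

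**Figure D1:**
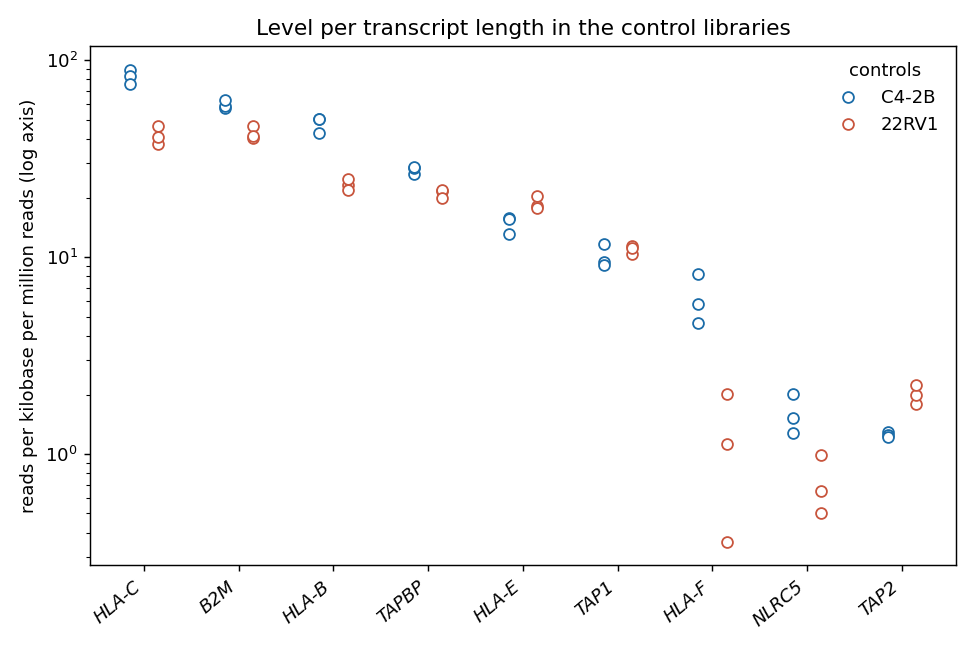
Level of the 9 genes in the control libraries, in CPM per kilobase of the longest transcript on a log axis, with 1 point per library (3 per line). HLA-C, B2M and HLA-B have the highest means in both lines, with HLA-B overlapping TAPBP in 22RV1, HLA-B and HLA-C are lower in 22RV1, and HLA-F falls from between 4.66 and 8.19 in C4-2B to between 0.360 and 2.02 in 22RV1.

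The lines were then set side by side gene by gene, in CPM of the recovered reads. The authors normalized the lines separately, so this is a description and was not tested. HLA-B had 77.7, 78.3 and 66.0 CPM in the C4-2B controls and 35.8, 33.9 and 38.6 CPM in the 22RV1 controls, a 2.05-fold higher mean in C4-2B. In bulk RNA, fewer expressing cells and less RNA per cell cannot be told apart. The aligner is not given, and how well the HLA reads of each line fit the reference sequence was not tested. HLA-C had 169, 157 and 142 CPM against 70.7, 76.6 and 86.7 CPM, a 2.00-fold higher mean. No 22RV1 control reached the lowest C4-2B control for either gene, and their ratio to each other overlapped between the lines, with 2.11 ± 0.0937 HLA-C reads per HLA-B read in C4-2B and 2.16 ± 0.163 in 22RV1.

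HLA-F, a nonclassical heavy chain that can be displayed without peptide, had 13.4, 7.61 and 9.47 CPM in C4-2B and 1.84, 3.30 and 0.589 CPM in 22RV1. The 5.33-fold higher mean in C4-2B rests on 8 to 39 reads per library in 22RV1. Without single control libraries it ran from 3.96-fold (without 22RV1 control library 3) to 8.37-fold (without 22RV1 control library 2). NLRC5 had 8.75, 10.4 and 13.8 CPM in C4-2B and 3.42, 6.76 and 4.42 CPM in 22RV1, a 2.26-fold higher mean in C4-2B with no overlap. B2M (143 against 102 CPM, 1.41-fold) and TAPBP (105 against 79.9 CPM, 1.31-fold) were also higher in every C4-2B control than in any 22RV1 control.

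HLA-E and TAP2 went the other way. HLA-E had 40.9, 40.6 and 34.1 CPM in C4-2B and 47.4, 53.0 and 46.3 CPM in 22RV1, a 1.27-fold higher mean in 22RV1. TAP2 had 7.38, 7.13 and 6.97 CPM in C4-2B and 10.3, 11.3 and 12.8 CPM in 22RV1, a 1.60-fold higher mean in 22RV1. TAP1 had 28.1, 26.9 and 34.5 CPM against 30.6, 33.7 and 32.9 CPM, and the lines overlapped.

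Thus 6 of the 9 genes were higher in C4-2B with no overlap, 2 were higher in 22RV1 and 1 overlapped. Among the 15527 genes tested in both lines, 30.1% were higher in C4-2B and 46.4% in 22RV1 with no overlap, 76.5% together. The median difference in either direction was 1.60-fold for the 9 genes and 1.86-fold for all genes. Scaling bears on the direction: the median gene had a log2 ratio of C4-2B over 22RV1 of -0.29 in CPM and 0.017 after TMM scaling (trimmed mean of M values), a shift of 0.31. After TMM scaling HLA-E overlapped between the lines (log2 ratio -0.03), TAP1 moved to 0.19 with overlap, and TAP2 stayed higher in 22RV1 (-0.37). Together the 9 genes took 0.0575% ± 0.000790 of reads in the C4-2B controls and 0.0395% ± 0.00168 in the 22RV1 controls.

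**Figure D2:**
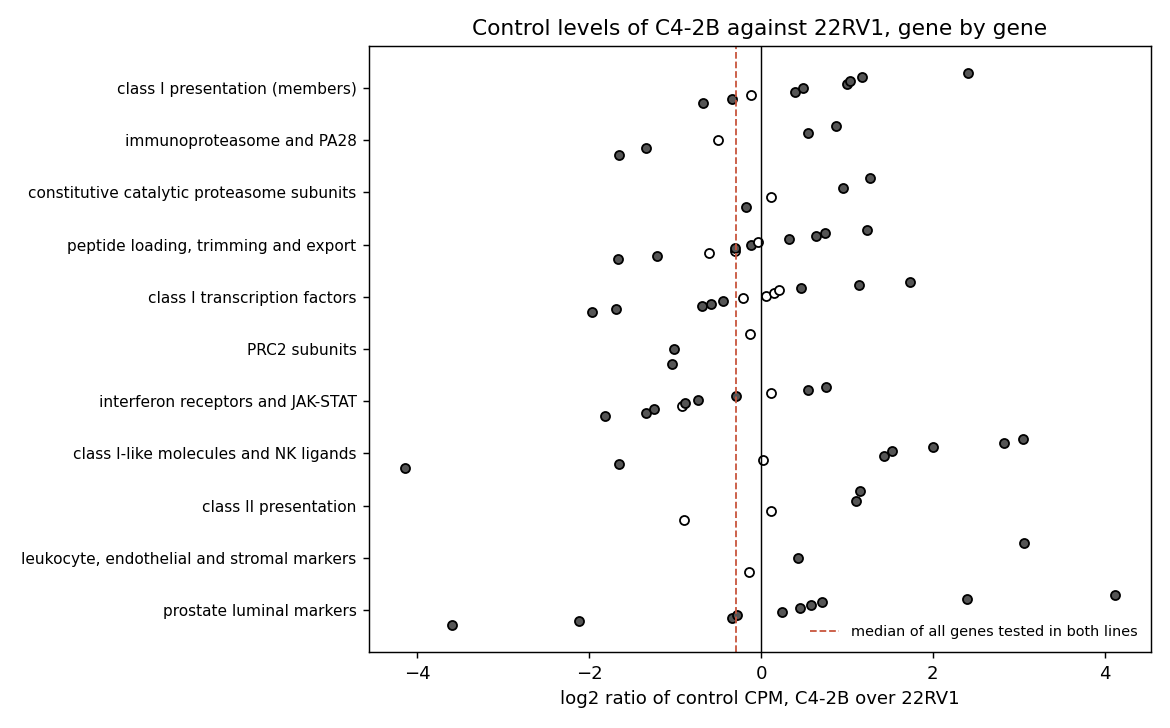
Log2 ratio of the mean control CPM, C4-2B over 22RV1, with 1 point per gene of each list that was tested in both lines; filled points mark genes whose control libraries do not overlap between the lines, open points those that do. The class I genes spread from TAP2 on the left to HLA-F on the right, 6 of the 9 lie to the right of 0 and are filled, and the dashed line marks the median of all genes at -0.29.

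The lists around the 9 genes show what surrounded them in each line. The immunoproteasome subunits, which replace the constitutive catalytic subunits when cells see interferon, were scarce: PSMB8, PSMB9 and PSMB10 had 0.471, 1.45 and 1.83 CPM in C4-2B and 1.49, 2.04 and 4.62 CPM in 22RV1. Their constitutive counterparts PSMB5, PSMB6 and PSMB7 had 127, 131 and 148 CPM in C4-2B and 117, 54.6 and 76.5 CPM in 22RV1. Of 10 interferon receptor and JAK-STAT genes tested in both lines, 6 were higher in 22RV1 with no overlap and 2 in C4-2B, beside the 46.4% and 30.1% of all genes given above. After TMM scaling 5 were higher in 22RV1 and 3 in C4-2B, beside 36.9% and 38.4% of all genes. JAK1, the kinase shared by interferon receptors, had 4.96 ± 3.07 CPM in C4-2B and 17.5 ± 4.89 CPM in 22RV1. IRF1, an interferon-induced factor that binds class I promoters, was the reverse, with 9.78 ± 2.03 CPM in C4-2B and 4.43 ± 0.285 in 22RV1.

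Of the 12 transcription factors of class I promoters, 5 were higher in 22RV1, 3 in C4-2B and 4 overlapped. Over all genes tested in both lines, 46.4% were higher in 22RV1 and 30.1% in C4-2B. TMM scaling turned the list to 3 higher in 22RV1 and 5 in C4-2B, beside 36.9% and 38.4% of all genes. The list thus has no direction that holds under both scalings. RFX5, the DNA-binding RFX subunit, had 60.8 CPM in C4-2B and 97.7 CPM in 22RV1, while its partner RFXANK had 93.6 and 28.1 CPM. Of the PRC2 subunits, which deposit a repressive histone mark, EED and SUZ12 were higher in 22RV1 and EZH2 overlapped. Class I-like molecules differed more: MR1, which presents vitamin B metabolites, was the highest of its list in 22RV1 at 54.7 ± 1.91 CPM and had 3.09 ± 0.941 in C4-2B. MICA, a stress ligand of the receptor NKG2D, was the highest in C4-2B at 26.3 ± 3.32 CPM and had 9.78 ± 2.35 in 22RV1. HLA-G and CD1D were at 0 in all control libraries of both lines. CIITA, the class II counterpart of NLRC5, was the highest gene of the class II list in both lines (45.5 ± 2.89 and 20.4 ± 2.03 CPM), and the class II chain gene HLA-DRA was at 0 in all controls. KRT8 was the highest luminal marker in both lines, at 618 and 780 CPM, and COL1A1 the highest of the leukocyte, endothelial and stromal list.

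The comparison the study was built on is 56-mer against control within each line, tested with limma on log2 of the normalized read count plus 1, with Benjamini-Hochberg adjustment over all genes tested in the line. In C4-2B, 0 of the 9 genes passed the adjusted threshold of 0.05, beside 0.066% of all genes tested. None had an unadjusted p under 0.05, beside 8.92% of all genes, and none had groups that did not overlap, beside 14.7% of all genes. The median log2 change of the 9 genes was -0.03 and that of all genes -0.01. With edgeR 0 of the 9 passed, and with DESeq2 0 of the 3 that it gave an adjusted p.

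In 22RV1, 0 of the 9 genes passed the adjusted threshold, beside 0.00975% of all genes tested. None had an unadjusted p under 0.05, beside 3.91% of all genes, and in none did the groups separate, beside 9.03% of all genes. The median log2 change was 0.0088 for the 9 genes and -0.0026 for all genes. Here too edgeR and DESeq2 called 0 of the 9.

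**Figure D3:**
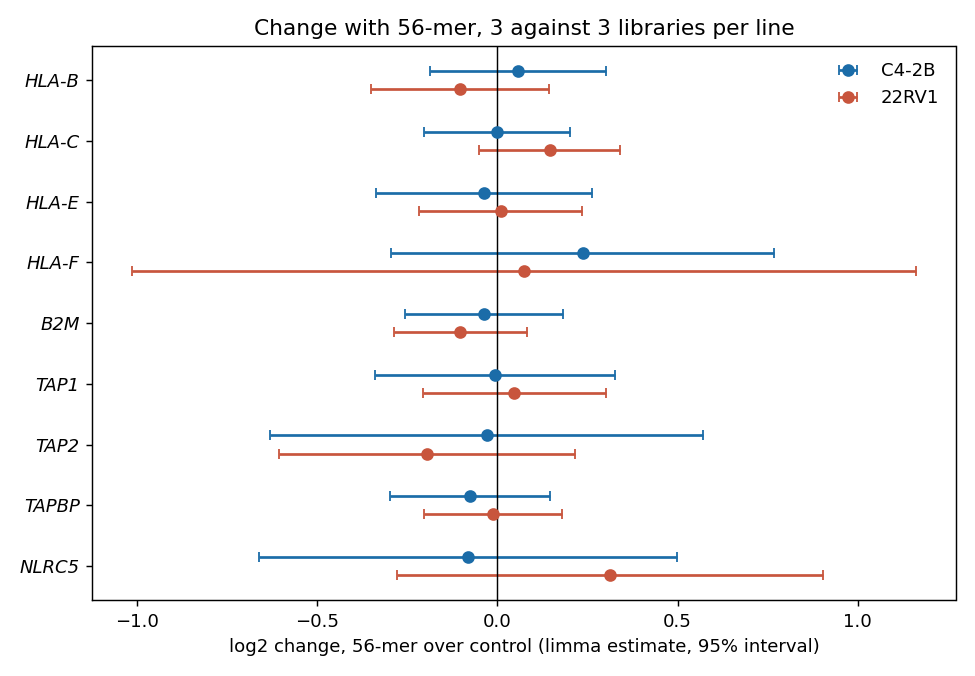
Log2 change with 56-mer over control for each of the 9 genes, as the limma estimate (point) with its 95% confidence interval (line), in C4-2B and in 22RV1, from 3 against 3 libraries per line. Every interval crosses 0, and HLA-F in 22RV1 has the widest, from -1.02 to 1.16.

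The heavy chains are given in normalized read counts, libraries 1 to 3. HLA-B had 913, 915 and 762 in the C4-2B controls and 1016, 858 and 822 with 56-mer. Its 22RV1 controls had 429, 407 and 461, and the 56-mer libraries 385, 414 and 407. The groups overlapped in both lines, with 1 high 56-mer library in C4-2B. The log2 change was 0.06 ± 0.12 (SE, 95% interval -0.19 to 0.30, limma adjusted p = 0.929) in C4-2B and -0.10 ± 0.12 (-0.35 to 0.14, adjusted p = 0.9996) in 22RV1. Without 56-mer library 1 the C4-2B estimate was -0.03.

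HLA-C had 1982, 1830 and 1640 in the C4-2B controls and 2035, 1797 and 1619 with 56-mer, and the groups overlapped over nearly their whole range. In 22RV1 the controls had 846, 920 and 1036 and the 56-mer libraries 943, 1122 and 1031. Only 1 of the 56-mer libraries exceeded the highest 22RV1 control. The log2 change was -0.002 ± 0.10 (-0.20 to 0.20) in C4-2B. For 22RV1 it was 0.15 ± 0.10 (-0.05 to 0.34, unadjusted p = 0.141, limma adjusted p = 0.9996), the smallest unadjusted p of the 9 genes in that line. Without 56-mer library 1, which stood apart by GC content, the estimate in 22RV1 was 0.21 (unadjusted p = 0.0251, limma adjusted p = 0.977), and after the GC and length correction 0.18 (unadjusted p = 0.0246).

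HLA-E had 481, 474 and 394 in the C4-2B controls and 459, 387 and 468 with 56-mer, and 568, 636 and 553 against 550, 667 and 555 in 22RV1. Its groups overlapped throughout, and the log2 changes were -0.04 ± 0.15 and 0.009 ± 0.11. HLA-F had 157, 89.0 and 109 in the C4-2B controls and 158, 125 and 128 with 56-mer. Its C4-2B log2 change of 0.24 ± 0.26 (-0.29 to 0.77) had the smallest unadjusted p of the 9 genes in that line, 0.366 (limma adjusted p = 0.835). In 22RV1, HLA-F was near the filter, with 22.0, 39.6 and 7.04 against 25.9, 20.5 and 14.1, and both the lowest and the highest library were controls. The log2 change there was 0.07 ± 0.54 (-1.02 to 1.16), an interval that runs from 0.495-fold to 2.24-fold. Changes within it could not be resolved with these libraries. Without 56-mer library 1 the 22RV1 estimate was -0.12. The C4-2B estimate was 0.46 without control library 1 and 0.05 without control library 2.

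B2M, the light chain of class I molecules, had 1623, 1644 and 1748 in the C4-2B controls and 1963, 1392 and 1575 with 56-mer. The 56-mer libraries lay on either side of the controls, and their coefficient of variation was 17.7% against 3.99% in the controls. In 22RV1 the controls had 1154, 1331 and 1180 and the 56-mer libraries 1272, 1060 and 1083. Here 2 of the 3 56-mer libraries were below every control. The log2 change was -0.04 ± 0.11 (-0.26 to 0.18) in C4-2B and -0.10 ± 0.09 (-0.29 to 0.08) in 22RV1. Without 56-mer library 1 it was -0.17 in C4-2B (limma adjusted p = 0.467) and -0.19 in 22RV1 (unadjusted p = 0.0302, limma adjusted p = 0.977).

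**Figure D4:**
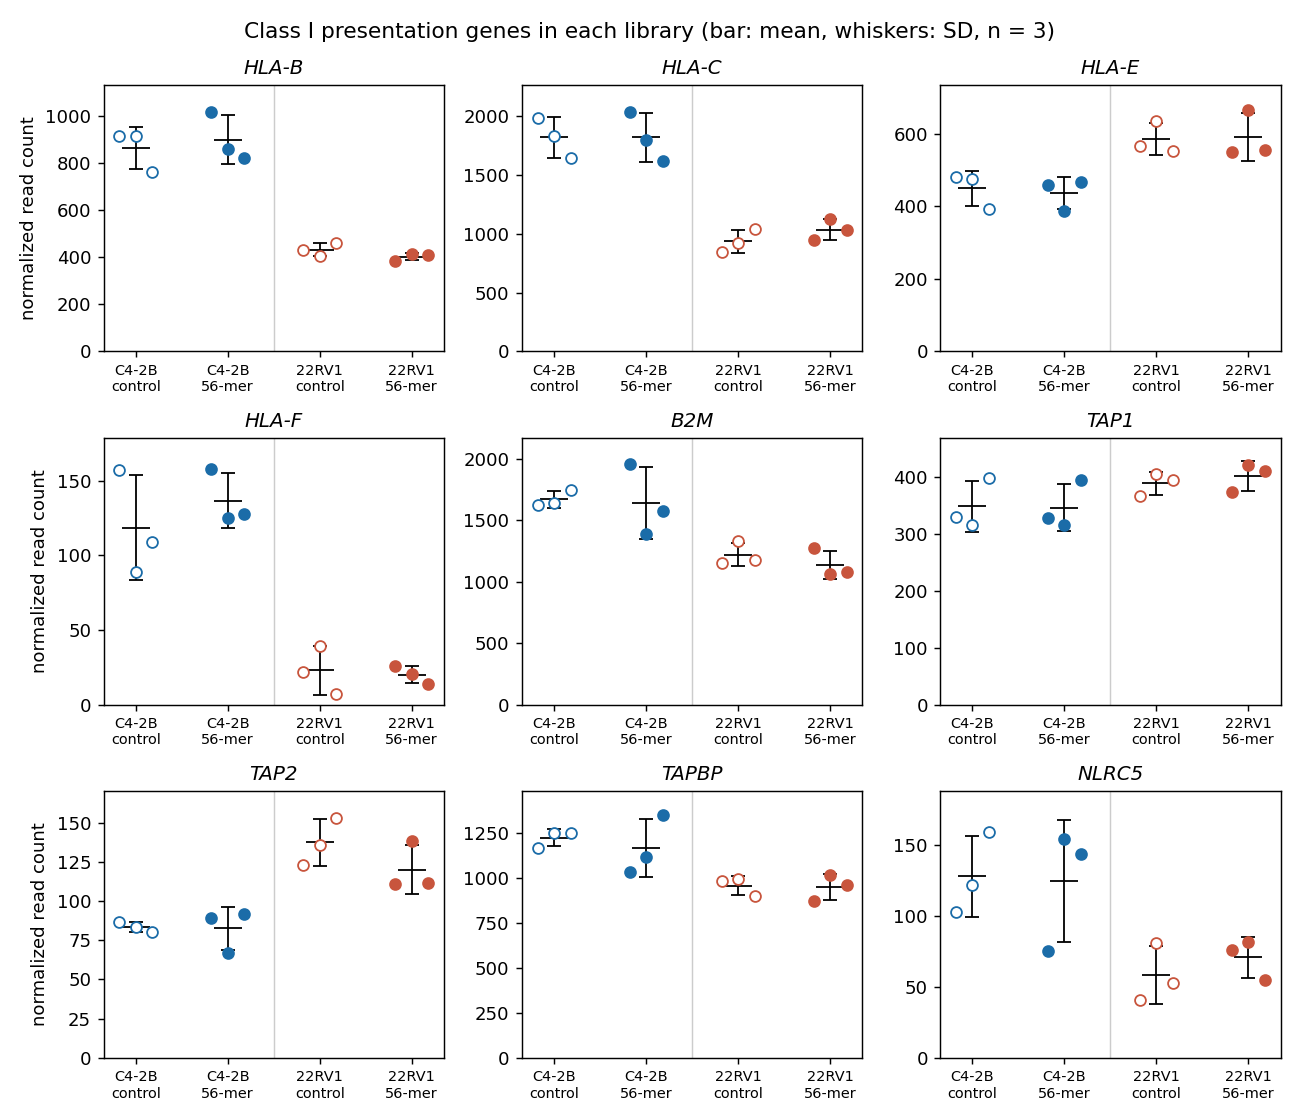
Normalized read count of each of the 9 genes in every library, with open points for controls and filled points for 56-mer, a bar at the mean and whiskers of 1 SD (n = 3 per group). Control and 56-mer libraries overlap in all 9 panels in both lines, while HLA-B, HLA-C and HLA-F sit lower in 22RV1 than in C4-2B.

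TAP1, the first transporter subunit, had 330, 315 and 398 in the C4-2B controls and 327, 316 and 394 with 56-mer. For 22RV1 the values were 366, 405 and 393 against 372, 421 and 410. The log2 changes were -0.007 ± 0.16 (-0.34 to 0.33) and 0.05 ± 0.13 (-0.21 to 0.30), and all groups overlapped. The C4-2B estimate for TAP1 was 0.03 without 56-mer library 1. TAP2 had 86.7, 83.3 and 80.5 against 89.2, 66.8 and 91.6 in C4-2B, where the 56-mer libraries lay on both sides of the controls. In 22RV1, TAP2 had 123, 136 and 153 in the controls and 111, 138 and 111 with 56-mer, so that 2 of 3 treated libraries were below every control. Its log2 changes were -0.03 ± 0.29 (-0.63 to 0.57) and -0.20 ± 0.20 (-0.61 to 0.22).

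TAPBP had 1167, 1250 and 1249 in the C4-2B controls and 1031, 1118 and 1347 with 56-mer. The 22RV1 libraries had 981, 993 and 896 against 871, 1017 and 961. Treated libraries lay above and below the controls in both lines, and the log2 changes were -0.08 ± 0.11 (-0.30 to 0.15) and -0.01 ± 0.10 (-0.20 to 0.18). For TAPBP they were 0.0072 in C4-2B and 0.05 in 22RV1 without 56-mer library 1 of the line.

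NLRC5, the class I transactivator, had 103, 122 and 159 in the C4-2B controls and 75.5, 155 and 144 with 56-mer. In 22RV1 it had 41, 81.2 and 52.8 in the controls and 75.8, 82.0 and 54.8 with 56-mer. Its coefficient of variation within a group ran from 20.1% to 35.4%, and the groups overlapped. The log2 change was -0.08 ± 0.28 (-0.66 to 0.50) in C4-2B and 0.31 ± 0.29 (-0.28 to 0.90) in 22RV1. Without 56-mer library 1, which stood apart by gene length, the C4-2B estimate was 0.24 (limma adjusted p = 0.794). In 22RV1 the NLRC5 estimate was 0.09 without control library 1 and 0.58 without control library 2.

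In the authors' deposited table for C4-2B, the 9 genes had log2 fold changes from -0.07 to 0.21 and unadjusted p-values from 0.504 to 0.994. The authors' deposited table for 22RV1 gave -0.20 to 0.28 and 0.183 to 0.948. No adjusted p-value of the 9 genes in the authors' deposited tables was below 0.999.

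Whether the lines responded differently was asked of the contrast between their log2 changes, 22RV1 minus C4-2B, with limma on all 12 libraries and 15527 genes. For the adjusted threshold the count was 0 of the 9 genes, beside 0% of all genes tested, and 0 of the 9 had an unadjusted p under 0.05, beside 7.9% of all genes. HLA-C had the smallest unadjusted p, 0.331, with a difference of 0.15 ± 0.15 (-0.16 to 0.45, limma adjusted p = 0.834). After the GC and length correction the HLA-C difference was 0.29 (unadjusted p = 0.0422, limma adjusted p = 0.645), and without single libraries it ran from 0.07 to 0.23. NLRC5 had the largest estimate, 0.39 ± 0.45 (-0.54 to 1.33), from its opposite signs in the lines. The median difference was 0.05 for the 9 genes and 0.01 for all genes. With edgeR 0 of the 9 passed, and with DESeq2 0 of the 3 given an adjusted p.

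The libraries at the extremes were not spread evenly over the genes. Of the 6 C4-2B libraries, 56-mer library 1 was the highest for HLA-B, HLA-C, HLA-F and B2M and the lowest for TAPBP and NLRC5. The longest transcripts of the first 4 genes measure 1547, 1880, 1635 and 2403 bases and those of the last 2 measure 3759 and 6822. The median over all genes was 3185, and in this library reads fell with length as given above. TAP2 (5684 bases), TAP1 (2959) and HLA-E (2601) were at neither extreme there. TAP2, longer than TAPBP, stood at a normalized read count of 89.2, above every C4-2B control. In 22RV1, 56-mer library 1 was the lowest for HLA-B, HLA-E, TAP2 and TAPBP, and 56-mer library 2, the shallowest of the 12, was the highest for HLA-C, HLA-E, TAP1, TAPBP and NLRC5. The part of length, GC content or depth in these extremes was not tested.

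Ratios of genes within a library cancel its depth, and 7 were compared between control and 56-mer in each line, 14 comparisons in all, chosen after the values were seen. With 3 against 3 libraries the exact two-sided permutation test cannot go below p = 0.1. The ratio of HLA-C to HLA-B reads in 22RV1 was 2.16 ± 0.163 in the controls and 2.56 ± 0.132 with 56-mer, without overlap (exact p = 0.1, Benjamini-Hochberg adjusted p = 0.467). In C4-2B the same ratio was 2.11 ± 0.0937 and 2.02 ± 0.0653 (exact p = 0.3, adjusted p = 0.525). The difference between the lines in this ratio was not tested. The TAP1 to TAP2 ratio per transcript length in 22RV1 was 5.46 ± 0.452 and 6.46 ± 0.608, again without overlap (exact p = 0.1, adjusted p = 0.467), and 8.02 ± 1.28 and 8.13 ± 1.02 in C4-2B. The ratio of PSMB10 to PSMB7 reads in 22RV1 separated too, with 0.0604 ± 0.00150 in the controls and 0.0355 ± 0.00735 with 56-mer, with the same p-values. None of the 14 passed the adjustment, and none could have, because the exact p cannot go below 0.1.

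The summed heavy chains HLA-B and HLA-C per B2M, each per transcript length, came to 2.20 ± 0.289 in the C4-2B controls and 2.29 ± 0.278 with 56-mer. The 22RV1 values were 1.53 ± 0.186 and 1.73 ± 0.279, and both lines overlapped between the groups (exact p = 0.7 and 0.4). The share of reads taken by the 9 genes was 0.0554% with 56-mer in C4-2B and 0.0390% in 22RV1, overlapping the controls in both lines.

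The other genes of the pathway were read from 10 lists with 97 genes, of which 72 were tested in C4-2B, 74 in 22RV1 and 70 for the difference. 0 of them passed the adjusted threshold with limma in any of these comparisons. An unadjusted limma p under 0.05 was seen for 9 of the 72, 2 of the 74 and 6 of the 70, that is in C4-2B, in 22RV1 and for the difference, beside 8.92%, 3.91% and 7.9% of all genes, and edgeR called 0 in each. In the immunoproteasome list the lowest unadjusted p belonged to PSMB9 in C4-2B (log2 change -1.55 ± 1.06, limma adjusted p = 0.691) and to PSMB10 in 22RV1 (-0.83 ± 0.34, limma adjusted p = 0.9996). Both are catalytic subunits at low counts. Log2 changes of the 4 constitutive proteasome genes had a median of 0.18 in C4-2B, led by PSMB6 (0.30 ± 0.09, limma adjusted p = 0.334), and -0.04 in 22RV1, led by PSMB7 (-0.07 ± 0.10).

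For the 11 peptide loading, trimming and export genes the medians were -0.03 and 0.02. HM13, a signal peptide peptidase that helps release the leader peptides HLA-E presents, led in C4-2B (0.24 ± 0.08, limma adjusted p = 0.397), and the chaperone CANX in 22RV1 (0.09 ± 0.05). The 12 transcription factors had medians of -0.16 and 0.0065, with RFXANK leading in C4-2B (0.23 ± 0.11, limma adjusted p = 0.558) and IRF2 in 22RV1 (0.32 ± 0.21). The PRC2 medians were 0.07 and -0.08, with EZH2 (0.07 ± 0.12) and EED (-0.16 ± 0.14) leading. Interferon receptor and JAK-STAT genes had medians of -0.10 and 0.0049, with IFNAR1 (-0.13 ± 0.11) and SOCS1 (-0.77 ± 0.45) leading.

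Class I-like molecules had medians of -0.15 over 9 tested genes in C4-2B and -0.04 over 9 in 22RV1. HLA-J, a pseudogene, led in C4-2B (-0.77 ± 0.66) and ULBP2, another NKG2D ligand, in 22RV1 (0.90 ± 0.58). Class II genes had medians of 0.21 over 4 and -0.07 over 5, with HLA-DMA, which edits class II peptides, leading in C4-2B (0.78 ± 0.34, limma adjusted p = 0.510) and CIITA in 22RV1 (0.27 ± 0.15). Of the leukocyte, endothelial and stromal markers, 4 and 3 were tested, led by COL1A1 in C4-2B (-0.26 ± 0.17) and CD68 in 22RV1 (-1.13 ± 0.85). Luminal markers had medians of 0.0081 and -0.0088. FOXA1, a pioneer factor of luminal cells, led in C4-2B (-0.35 ± 0.08, limma adjusted p = 0.120). FOXA1 was the single list gene whose call depended on the setting: it passed with DESeq2 (adjusted p = 0.00425), without 56-mer library 1 (limma adjusted p = 0.00217), and also under quantile normalization, equal totals, no filter and the GC and length correction.

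Several of the 9 genes have neighbours or copies that could share reads, and neither the counting tool nor its use of strand is given in the sources used here. Of the 50-base stretches of the longest transcript, 3.93% of HLA-C, 2.20% of HLA-B, 1.51% of HLA-F and 1.41% of HLA-E also occur in another of the 9, against 0 for B2M, TAPBP and NLRC5. The GENCODE 29 model of HLA-B overlaps that of HLA-C on the same strand. It also overlaps the pseudogene AL671883.2 on the opposite strand, with mean normalized read counts of 252 in C4-2B and 194 in 22RV1. HLA-B itself had 881 and 417 over all libraries of each line. PSMB9, on the strand opposite to TAP1, had 13.2 in C4-2B and 31.8 in 22RV1. HLA-F-AS1, antisense to HLA-F, had a mean normalized read count of 23.9 in 22RV1, close to that of HLA-F itself, and PSMB8-AS1, antisense to TAP1, had 134 in C4-2B and 87.7 in 22RV1. The reads of such pairs cannot be told apart here.

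Finally, the genes whose pattern across libraries was most like the mean of the 9 were looked up among 7573 expressed genes, by the smaller of both lines' Pearson correlations over the 6 libraries of a line. Among the closest were AC008761.1 (0.95 in C4-2B, 0.88 in 22RV1), MFSD6 (0.87, 0.82), NUDT3 (0.83, 0.78) and BRAP (0.81, 0.78). The genes were not scaled to equal spread before the mean was taken. HLA-F, with normalized read counts from 7.04 to 39.6 in the 22RV1 controls, therefore weighs heavily in that line. Control library 3 of 22RV1, the lowest in the mean and in HLA-F, was the highest for HLA-B and TAP2. Likeness to the mean is thus not likeness to each of the 9 genes. These correlations share libraries, depth and base composition and are given without a test.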

How the data were processed

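RNA-seq of 12 libraries was read from 2 normalized and 2 comparison tables deposited by the authors. The normalized values are signal: in the deposited tables each value is a whole number of reads divided by 1 size factor per library, each line separately (100% of nonzero values whole within 0.01), so reads were recovered and CPM computed. Per the file headers, the deposited comparison tables hold a mean signal, a log2 fold change and its error, the Wald score derived from them, and p-values before and after adjustment. The submitters' processing notes name DESeq without a version; aligner, counting tool and build were not given in the sources used here. 1 entry without a symbol held 0 reads and was left out.

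Per line, genes reaching a normalized count of 10 in 3 or more of its 6 libraries were tested with limma 3.58.1 (R 4.3.3). The fit used lmFit and trended, robust eBayes on log2(count + 1). Tests were two-sided and Benjamini-Hochberg adjusted over all genes tested, with a threshold of 0.05. A fold on this scale understates changes of low genes. The procedure was checked on counts simulated from each line's means and library sizes. In C4-2B it called 27% of 1.5-fold and 58% of 2-fold changes, and in 22RV1 36% and 68%. Depth was 8847368 to 13740386 reads per library. An SD is the spread between replicates, which includes counting error. The SE of a log2 change is limma's moderated standard error, which also draws on the spread of other genes between the same libraries. Levels across lines were not tested. Alternatives used quantile normalization, equal totals, other filters and pseudocounts, plain variance, edgeR 4.0.16, DESeq2 1.42.0, a GC and length correction (lowess span 0.3, GENCODE 29, 95.9% and 95.3% of genes matched), and leaving out each library. All 9 genes are named; of the other lists, the gene with the smallest unadjusted p per list and line, any gene called, and the highest gene of the class I-like, class II, leukocyte and luminal lists; list genes beyond these were named after their values were seen. The members and lists were chosen with earlier results of these data known. Some genes that this rule or the correlation ranking names are not reported here.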

Additional observations from a re-analysis of the deposited data

How the results depend on the processing

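No paired analysis was possible because replicate numbers follow the record order and nothing ties a control library to a treated one. Under every alternative run, 0 of the 9 genes passed the threshold in C4-2B, in 22RV1 or in the difference, with adjusted p-values of 0.467 or more; DESeq2 gave none for 6 of the 9 in C4-2B and in the difference. Control levels separated in 8 genes, in 7 after TMM scaling, and in 9 without C4-2B control 3. Of the genes on the other lists, 1 (the luminal marker FOXA1) passed in C4-2B under quantile normalization, 1 with equal totals, 1 with no filter, 1 with DESeq2 and 1 after the GC and length correction, against 0 otherwise. Leaving out single libraries gave 0 to 1, the 1 without 56-mer library 1.

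Log2 changes with an interval around 0 took the other sign in places, and the cause was not tested. In C4-2B these were TAP1 (0.021) and TAP2 (0.017) under quantile normalization, HLA-C (0.0033) with edgeR, and HLA-B (-0.043), B2M (0.0036) and TAP2 (0.020) after the GC and length correction. In 22RV1 they were HLA-E (-0.0078) with equal totals, HLA-F with a pseudocount of 10 (-0.011), edgeR (-0.17) and DESeq2 (-0.17), and TAPBP (0.0057) after the correction. The TAP1 control ratio turned to 0.19 after TMM scaling.

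Leaving out single libraries moved the C4-2B estimates of HLA-B from -0.034 to 0.12, HLA-C from -0.087 to 0.078, HLA-E from -0.13 to 0.048, HLA-F from 0.052 to 0.46, B2M from -0.17 to 0.074, TAP1 from -0.10 to 0.094, TAP2 from -0.11 to 0.11, TAPBP from -0.19 to 0.0072 and NLRC5 from -0.27 to 0.24. In 22RV1 it moved HLA-E from -0.081 to 0.070, HLA-F from -0.57 to 0.60, TAPBP from -0.063 to 0.048 and NLRC5 from 0.092 to 0.58. In the difference it moved HLA-E from -0.044 to 0.14, HLA-F from -0.81 to 0.36, B2M from -0.18 to 0.070, TAP1 from -0.048 to 0.15 and TAPBP from -0.020 to 0.17. For HLA-C the difference ran from 0.067 to 0.23 and for NLRC5 from 0.069 to 0.66. HLA-F in 22RV1 was below a mean of 50 and was not tested with that filter.

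Over all C4-2B genes, limma called 11, edgeR 0, DESeq2 42, limma without trend 1, with no filter 34 and after the GC and length correction 21. Without 56-mer library 1 it called 81, and 0 without any other single library. In 22RV1 the 2 calls became 11 with no filter, 7 after the correction, 0 without trend and 0 to 11 without single libraries. For the difference, 0 calls became 1 with edgeR, 4 with DESeq2, 5 with no filter, 5 after the correction, and 0 to 13 without single libraries. HLA-F in 22RV1 had 8 reads in its lowest library, control 3, whose total of 13586045 reads was the highest of the 22RV1 controls. The part of depth in this was not tested.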
